A study of Mus musculus with 16 samples.

Results

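Transcription factors of the effector Treg state were followed as 9 genes, Irf4, Batf, Prdm1, Id2, Nfil3, Bhlhe40, Crem, Ikzf3 and Zeb2, of the 19938 genes that the arrays measured. They were chosen by name as factors known for that state. These 9 factors and the gene lists below were chosen with earlier results of these data known. Shares of all genes printed beside counts therefore give a scale and are no test. Each factor was read from the 1 probe set annotated to its symbol alone. Regulatory T cells (Treg) are CD4 T cells that carry the factor Foxp3 and restrain other T cells. Expression arrays measured 4 Treg subsets, split by surface CD103 and ICOS, in 8 groups of 2 arrays each, 16 arrays in all.

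The activated groups were Treg recovered after 3 days in a suppression assay, and the fresh groups were Treg whose RNA was taken directly after the sort. Both states held a CD103+ ICOS+ subset (double-positive), a CD103- ICOS+ subset (ICOS single-positive), a CD103+ ICOS- subset (CD103 single-positive) and a CD103- ICOS- subset (double-negative). CD103 is the integrin chain encoded by Itgae, and ICOS is a costimulatory receptor of activated T cells. All cells came from wild type female C57BL/6 mice of 8 to 12 weeks, and lymph nodes of several sites were combined; the labels do not say how many mice went into an array. In the assay 200000 Treg shared a well with 1000000 naive CD4 cells that carried the congenic marker Ly5.1, with 2000000 irradiated Rag2-/- splenocytes, which lack T and B cells, and with 0.5 ug/ml soluble anti-CD3. After the assay the Treg were taken as Ly5.1-negative CD4+ CD25+ cells, so activated cells were sorted again and fresh cells were not. The subset name of an activated array is that of the cells put into the assay.

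Effector Treg are the antigen-experienced cells among Treg, and a small set of factors acts in them. Irf4 and Batf bind DNA together at sites that join an AP-1 and an interferon response element, downstream of T cell receptor signals. Prdm1 encodes Blimp-1, a zinc finger repressor that in mouse Treg is needed for Il10 and lies downstream of Irf4. Id2 has no DNA-binding part and holds E proteins away from DNA. Nfil3, Bhlhe40 and Crem encode a basic leucine zipper repressor, a basic helix-loop-helix repressor and a cyclic AMP response factor that has short inhibitory forms. Ikzf3 encodes Aiolos, an Ikaros family zinc finger factor of lymphocytes, and Zeb2 encodes a zinc finger repressor known from terminal effector CD8 T cells and NK cells.

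Levels are log2 intensities, so a difference of 1 is a 2-fold difference, and levels of different genes are not comparable because each probe set binds with its own strength. The 7 Treg markers listed were above the array median on all 16 arrays, with a mean log2 level of 10.88 to 12.39 on activated and 11.71 to 12.40 on fresh arrays. The activated ICOS single-positive array of replicate 2 stood apart. Foxp3 was at 8.53 on it and at 12.64 on its partner, and 685 genes differed more than 2-fold between these 2 arrays, against 24 to 413 between the arrays of the other groups. On that array Klrd1, an NK and CD8 T cell receptor gene, was at 10.47, against 5.32 on its partner, while over 6 CD8 T and NK cell markers 4 were higher and 2 lower with a median change of 0.10, and Itgae was at 6.30, against 10.001. The activated double-negative pair was the next most divergent, with 413 genes, and its replicate 2 held Klrd1 at 8.33 and Ifng at 10.16, against 5.19 and 6.83 on replicate 1. Below, each result is given on all 16 arrays, and without the ICOS single-positive array wherever that changes a call.

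Promoter windows are shown for the 4 factors whose ICOS difference passed on the 16 arrays and for 1 window of Zeb2, because AP-1 sites are where Batf acts. They are RefSeq sequences of GRCm38.p6 that run 250 bases before to 50 bases after a gene's start, 5′ to 3′ on the gene's strand, and capitals mark motif matches. The windows lie at chr10:44458699-44458998 (minus strand) for Prdm1, chr13:30748983-30749282 (plus) for Irf4, chr12:85686470-85686769 (plus) for Batf, chr12:25096043-25096342 (minus) for Id2 and chr2:45110228-45110527 (minus) for Zeb2.
Prdm1: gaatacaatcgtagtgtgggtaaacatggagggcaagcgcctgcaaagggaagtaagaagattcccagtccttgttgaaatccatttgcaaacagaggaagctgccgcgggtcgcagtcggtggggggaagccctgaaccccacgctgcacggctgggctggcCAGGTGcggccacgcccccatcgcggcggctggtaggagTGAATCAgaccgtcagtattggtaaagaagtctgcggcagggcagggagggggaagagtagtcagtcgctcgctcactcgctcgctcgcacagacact
Irf4: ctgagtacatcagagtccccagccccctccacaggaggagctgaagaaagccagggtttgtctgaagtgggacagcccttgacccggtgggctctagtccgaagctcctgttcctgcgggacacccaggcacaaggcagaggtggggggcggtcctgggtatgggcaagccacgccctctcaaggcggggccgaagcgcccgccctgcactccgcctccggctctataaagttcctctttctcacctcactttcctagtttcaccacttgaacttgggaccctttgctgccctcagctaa
Batf: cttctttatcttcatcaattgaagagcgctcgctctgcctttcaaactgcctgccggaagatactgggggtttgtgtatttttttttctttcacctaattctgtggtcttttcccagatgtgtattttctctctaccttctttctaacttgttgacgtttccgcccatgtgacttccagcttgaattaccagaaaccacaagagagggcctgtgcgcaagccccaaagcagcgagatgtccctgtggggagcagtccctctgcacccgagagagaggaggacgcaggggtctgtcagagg
Id2: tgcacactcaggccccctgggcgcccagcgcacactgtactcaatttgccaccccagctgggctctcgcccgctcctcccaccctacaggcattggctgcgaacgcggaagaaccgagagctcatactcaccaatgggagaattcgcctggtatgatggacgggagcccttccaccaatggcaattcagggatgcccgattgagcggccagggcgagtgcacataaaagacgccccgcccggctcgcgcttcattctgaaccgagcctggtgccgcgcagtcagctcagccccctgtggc
Zeb2: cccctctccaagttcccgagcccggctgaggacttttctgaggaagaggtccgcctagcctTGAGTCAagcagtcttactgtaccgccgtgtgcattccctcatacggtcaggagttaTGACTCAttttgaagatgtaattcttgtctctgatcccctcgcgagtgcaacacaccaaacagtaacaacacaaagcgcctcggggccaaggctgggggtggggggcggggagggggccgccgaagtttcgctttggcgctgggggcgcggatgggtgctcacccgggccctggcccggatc

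Both strands were searched for TGANTCA (AP-1), GAAANNGAA (interferon response element), TGACGTCA (cyclic AMP response element), CACGTG (E-box of Bhlhe40), TTACNTAA (Nfil3), CACCTG (Zeb2) and AGNGAAAG (Blimp-1). The table holds windows for 6 of the 9 genes, which are Irf4, Batf, Prdm1, Id2, Nfil3 and Zeb2, and 9 windows in all. The Prdm1 window has an AP-1 match, TGAATCA, that starts 48 bases before the gene's start, and the complement of the Zeb2 motif, CAGGTG, 87 bases before it. The Zeb2 window printed has 2 AP-1 matches, TGAGTCA 189 bases and TGACTCA 132 bases before the start. Of the other 3 Zeb2 windows, 2 overlap and share 1 Blimp-1 match. The windows of Irf4, Batf, Id2 and Nfil3 hold none of these letters. AP-1 letters occur in 7.8% of the 32817 windows of all genes, those of Zeb2 in 20.2% and those of Blimp-1 in 8.6%, and a match is a description of the letters only.

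Fresh ICOS+ subsets carried more Prdm1, Id2, Irf4 and Batf RNA than fresh ICOS- subsets. These 4 of the 9 genes passed in that direction and none passed in the other, where 4.1% of all genes tested were called higher. The largest difference was in Prdm1 at 10.9-fold, followed by Id2 at 4.04-fold, Irf4 at 2.25-fold and Batf at 2.08-fold. The test is limma's moderated test over 19938 genes with Benjamini-Hochberg adjustment and a threshold of 0.05. Its p-values rest on the spread between the 2 biological replicates of a group, pooled over all 8 groups, fresh and activated. In bulk samples fewer cells of a type and less RNA per cell cannot be told apart.

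Irf4 was at 10.29 and 10.36 in fresh double-positive cells and at 10.86 and 11.04 in fresh ICOS single-positive cells, against 9.69 and 9.79 in CD103 single-positive and 9.36 and 9.02 in double-negative cells. Its 4 ICOS+ arrays lay above all 4 ICOS- arrays, and the ICOS single-positive pair was the highest. The ICOS difference was 1.17 ± 0.17 (SE, adjusted p = 0.00166). Batf, its AP-1 partner, was at 9.80 and 9.99 in double-positive and 9.76 and 9.89 in ICOS single-positive cells, against 8.99 and 9.12 in CD103 single-positive and 8.43 and 8.68 in double-negative cells. The 2 ICOS+ subsets shared 1 range for Batf, above both ICOS- subsets, with a difference of 1.05 ± 0.17 (adjusted p = 0.00312).

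Prdm1 was at 10.70 and 10.89 in fresh double-positive and 9.83 and 9.77 in ICOS single-positive cells, against 7.01 and 6.94 in CD103 single-positive and 6.74 and 6.72 in double-negative cells. No other factor of the 9 separated the fresh groups as widely, and the ICOS- arrays lay close to the array medians of 6.26 to 6.48. The difference was 3.44 ± 0.70 (adjusted p = 0.014). It missed the threshold when ICOS single-positive replicate 1 or 2 or double-positive replicate 2 of the fresh cells was left out. The estimates were then 3.43, 3.46 and 3.40. Of 23 alternatives in processing or arrays 20 passed, with adjusted p down to 4.44e-06. For Prdm1 the 2 arrays of each fresh group lay 0.02 to 0.19 apart. Activated pairs up to 3.76 apart enter the same spread. Plasma cells also carry Prdm1. The mean log2 level of 4 plasma cell markers was 6.68 to 7.14 on fresh ICOS+ arrays and 6.60 to 6.84 on fresh ICOS- arrays. Of these markers Jchain was at 4.28 to 4.84 on the 8 fresh arrays. Sdc1 was at 7.93 and 7.88 in double-positive cells and 6.30 to 6.61 on the other fresh arrays. The part of plasma cells in the Prdm1 difference was not tested. Id2 was at 12.39 and 12.37 in double-positive and 11.66 and 11.71 in ICOS single-positive cells, against 10.47 and 10.28 in CD103 single-positive and 10.04 and 9.29 in double-negative cells. Its ICOS+ arrays also lay above all ICOS- arrays, by 2.01 ± 0.25 (adjusted p = 0.000628).

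Nfil3 was at 8.22 and 8.66 in fresh double-positive and 7.94 and 8.23 in ICOS single-positive cells, against 7.31 and 7.81 in CD103 single-positive and 6.78 and 6.88 in double-negative cells. Its ICOS+ and ICOS- arrays did not overlap either, which makes 5 of the 9 genes, where 5.78% of all genes had all 4 ICOS+ arrays above all 4 ICOS- arrays. The difference of 1.07 ± 0.34 missed the threshold on all arrays (adjusted p = 0.104). Without the array that stood apart its estimate was the same and it passed (adjusted p = 0.00456), as it did without that array's partner or on the 8 fresh arrays alone (adjusted p = 0.00565), because the gap of that pair enters the spread of every comparison. With that array left out 5 of the 9 genes passed, against 4.91% of all genes called higher.

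Ikzf3 differed by 0.43 ± 0.14 (adjusted p = 0.115) and Zeb2 by 0.37 ± 0.27 (adjusted p = 0.518), and their ICOS+ and ICOS- arrays overlapped. Zeb2 was at 6.05 and 5.92 in fresh double-positive and 5.84 and 5.76 in ICOS single-positive cells, against 5.91 and 5.40 in CD103 single-positive and 5.39 and 5.38 in double-negative cells. It thus lay below the array median on all 8 fresh arrays, where background can be a large part of the intensity and folds can be understated. The background level itself was not examined. Crem was at 7.33 and 7.82 in fresh double-positive and 6.82 and 7.19 in ICOS single-positive cells, against 6.80 and 7.29 in CD103 single-positive and 7.21 and 7.15 in double-negative cells. The ICOS groups overlapped for it, and it differed by 0.18 ± 0.25 (adjusted p = 0.76) and Bhlhe40 by 0.17 ± 0.36 (adjusted p = 0.848). The 95% intervals were -0.36 to 0.72 for Crem and -0.62 to 0.96 for Bhlhe40. Cell cycle genes moved with ICOS in fresh cells, and the average log2 level over 9 such genes was 8.61 to 9.49 on ICOS+ arrays and 5.93 to 6.34 on ICOS- arrays. The average of 7 markers of activated conventional CD4 T cells was 6.75 and 6.74 in double-positive and 7.98 and 8.10 in ICOS single-positive cells, against 6.44 to 6.67 on ICOS- arrays. The average of 6 CD8 T and NK cell markers was 5.69 to 5.94 on ICOS+ and 6.02 to 6.46 on ICOS- arrays, and that of 5 naive T cell markers 9.72 to 10.81 and 10.70 to 11.44. The part of these lists in the differences of the 9 factors was not tested.

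**Figure D1:**
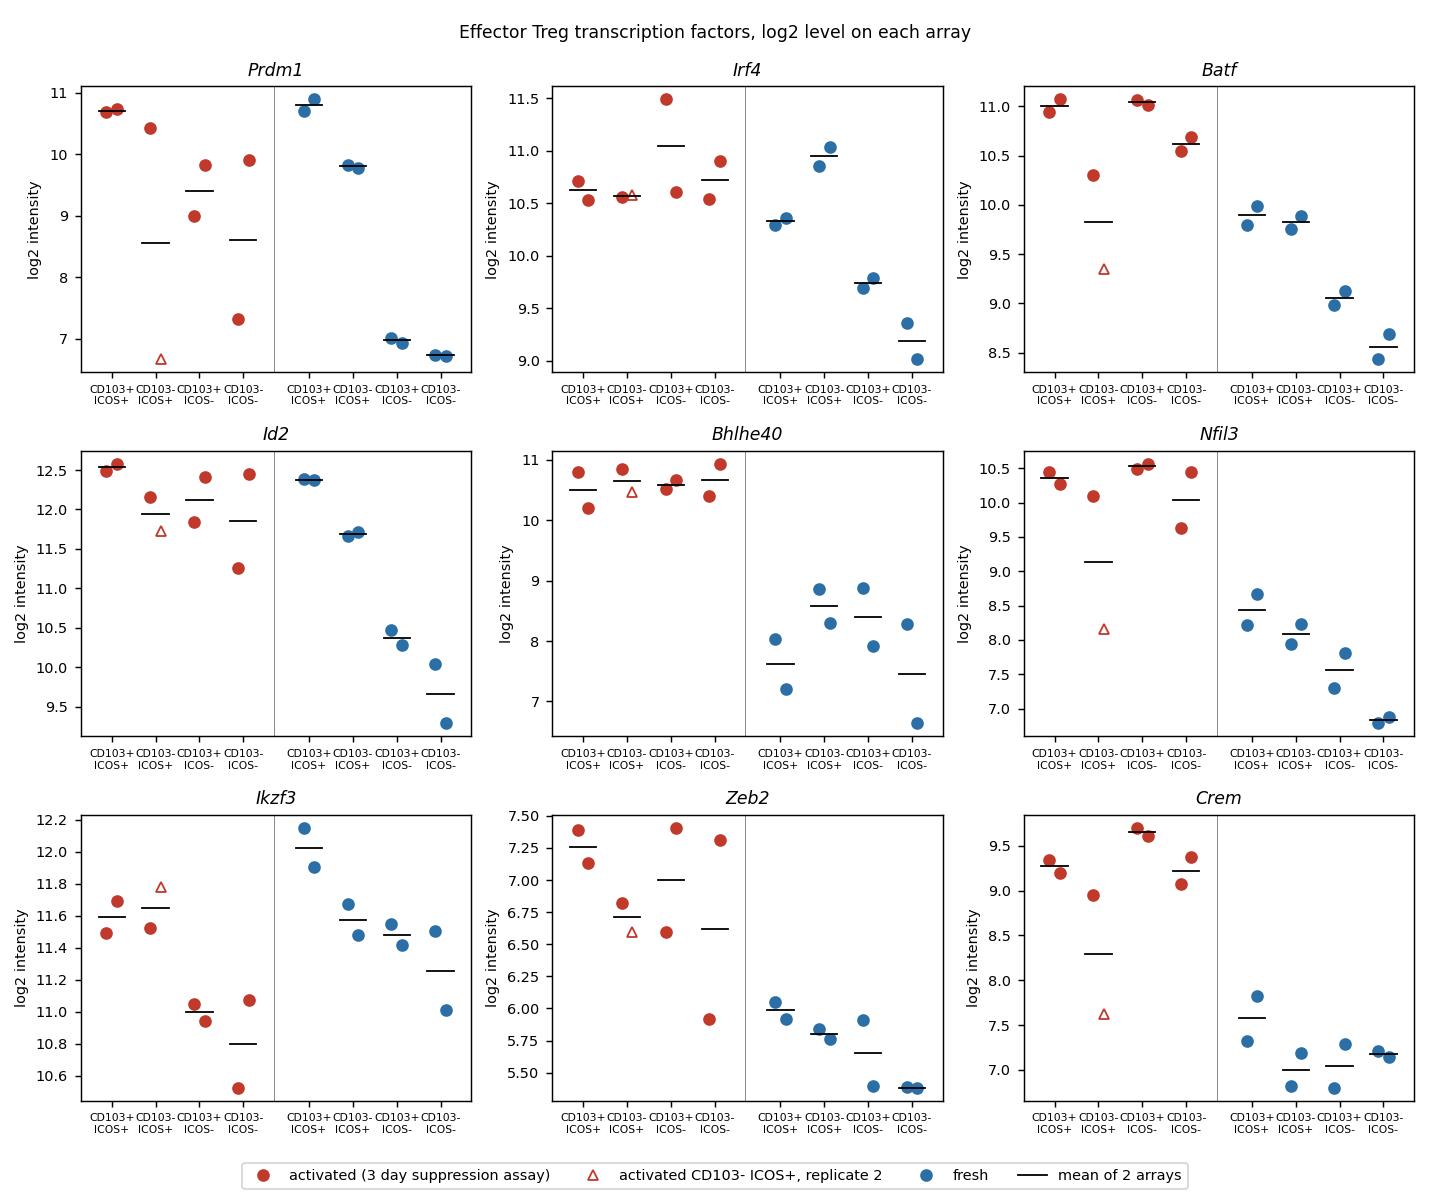
Log2 intensity of each factor on each array, with 4 activated groups left of 4 fresh groups in each panel, points for arrays, bars for the mean of 2 arrays and an open triangle for the activated CD103- ICOS+ array of replicate 2. On fresh arrays Prdm1 runs from 6.72 to 10.89 and Id2 from 9.29 to 12.39, with the ICOS+ groups above, while Bhlhe40 is at 10.20 or more on every activated array and at 8.88 or less on every fresh one.

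CD103 alone moved none of the 9 factors past the threshold in fresh cells, where 0.206% of all genes were called in either direction. At an unadjusted p under 0.05 there were 2 of the 9, and 7.49% of all genes. Id2 came closest, with a CD103 difference of 0.70 ± 0.25 (adjusted p = 0.435, unadjusted 0.016), followed by Ikzf3 at 0.34 ± 0.14 (adjusted p = 0.607). Double-positive Id2 at 12.38 and ICOS single-positive Id2 at 11.68 differed by 0.69 (95% interval -0.08 to 1.47), and CD103 single-positive and double-negative cells by 0.71 (-0.06 to 1.48). Prdm1 differed by 0.62 ± 0.70 (adjusted p = 0.999) on all 16 arrays, and by the same 0.62 with an adjusted p of 0.0148 when the 8 fresh arrays were fitted alone.

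No factor passed the test of whether the CD103 and ICOS differences depend on each other in fresh cells, where 0.0451% of genes were called. At an unadjusted p under 0.05 there were 2 factors, Irf4 and Bhlhe40, and 4.96% of all genes. Irf4 had the interaction with the smallest p, -1.18 ± 0.33 (adjusted p = 0.449, unadjusted 0.00487). Its level was lower by 0.62 in double-positive than in ICOS single-positive cells (95% interval -1.14 to -0.10) and higher by 0.55 in CD103 single-positive than in double-negative cells (0.03 to 1.07). Bhlhe40 ran the same way, with an interaction of -1.89 ± 0.72 (adjusted p = 0.849). Its replicates lay up to 1.65 apart, with 8.04 and 7.21 in double-positive, 8.86 and 8.29 in ICOS single-positive, 8.88 and 7.91 in CD103 single-positive and 8.29 and 6.63 in double-negative cells.

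Double-positive cells exceeded double-negative cells in the same 4 factors as the ICOS difference, with which this contrast shares its arrays, and 2.94% of genes were called higher. Prdm1 was higher by 4.06 ± 0.997 (16.7-fold, adjusted p = 0.0481), Id2 by 2.72 ± 0.35 (6.58-fold, adjusted p = 0.00152), Batf by 1.34 ± 0.23 (adjusted p = 0.00857) and Irf4 by 1.14 ± 0.24 (adjusted p = 0.0215). Id2 passed whichever array was left out. Prdm1 passed under 11 of 23 alternatives in processing or arrays, with adjusted p down to 1.06e-05. With any of 12 arrays left out Prdm1 missed the threshold, at estimates of 3.97 to 4.16. Batf missed it without fresh double-negative replicate 1 (adjusted p = 0.0691) or fresh double-positive replicate 2 (0.0852), and Irf4 without fresh double-negative replicate 2 (0.186), fresh double-positive replicate 1 (0.0997) or fresh double-positive replicate 2 (0.137). Without the array that stood apart Nfil3 joined them (1.61, adjusted p = 0.00394), so that 5 factors passed and 3.93% of genes were called higher.

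Over the 4 subsets 7 of the 9 factors were higher in activated than in fresh cells, and Ikzf3 was lower. These counts stand against 14.4% of all genes called higher and 16.8% called lower. Stimulation, 3 days of culture with other cells and the second sort cannot be told apart in this comparison. Activation below stands for all of them together. Bhlhe40 rose most, 6.01-fold, then Nfil3 4.88-fold, Crem 3.75-fold, Batf 2.44-fold, Id2 2.13-fold and Irf4 1.61-fold. Zeb2 rose as well, by a measured 2.28-fold that its low fresh signal may understate, so it was left out of that order. Prdm1 did not pass on all arrays. These 7 rises passed under every alternative tried, with each array left out in turn among them.

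Irf4 was at 10.71 and 10.54 in activated double-positive, 10.56 and 10.58 in ICOS single-positive, 11.49 and 10.60 in CD103 single-positive and 10.55 and 10.90 in double-negative cells. The 8 activated arrays thus lay within 0.95 of each other, against 2.02 among the 8 fresh arrays, and the ranges overlapped because fresh ICOS single-positive cells were already at 10.86 and 11.04. The activated minus fresh difference was 0.69 ± 0.12 (adjusted p = 0.000867). Batf was at 10.94 and 11.07 in activated double-positive, 10.30 and 9.35 in ICOS single-positive, 11.07 and 11.02 in CD103 single-positive and 10.55 and 10.69 in double-negative cells. Apart from the ICOS single-positive array of replicate 2, at 9.35, every activated array lay above the fresh maximum of 9.99, and the difference was 1.29 ± 0.12 (adjusted p = 9.77e-06).

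Bhlhe40 was at 10.80 and 10.20 in activated double-positive, 10.84 and 10.47 in ICOS single-positive, 10.52 and 10.66 in CD103 single-positive and 10.40 and 10.94 in double-negative cells. All 8 activated arrays, the one that stood apart included, lay above all 8 fresh arrays, whose maximum was 8.88. The share of all genes that separate the 2 states in this way was not computed. Such separation, here and for the other factors, is therefore a description only. The difference was 2.59 ± 0.25 (adjusted p = 1.68e-05). Nfil3 was at 10.45 and 10.27 in activated double-positive, 10.10 and 8.16 in ICOS single-positive, 10.49 and 10.57 in CD103 single-positive and 9.64 and 10.44 in double-negative cells. The array at 8.16 alone fell inside the fresh range of 6.78 to 8.66, and the difference was 2.29 ± 0.24 (adjusted p = 2.92e-05). Crem, the cyclic AMP response factor, was at 9.35 and 9.19 in activated double-positive, 8.95 and 7.63 in ICOS single-positive, 9.70 and 9.61 in CD103 single-positive and 9.07 and 9.38 in double-negative cells. Its fresh arrays lay between 6.80 and 7.82, so again 1 activated array of 8 overlapped them, and the difference was 1.91 ± 0.17 (adjusted p = 9.71e-06).

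Id2 was at 12.49 and 12.58 in activated double-positive, 12.16 and 11.73 in ICOS single-positive, 11.84 and 12.41 in CD103 single-positive and 11.26 and 12.45 in double-negative cells. The activated arrays overlapped the fresh ICOS+ arrays and lay above all fresh ICOS- arrays, with an activated minus fresh difference of 1.09 ± 0.17 (adjusted p = 0.000565). Zeb2 was at 7.39 and 7.13 in activated double-positive, 6.82 and 6.60 in ICOS single-positive, 6.60 and 7.41 in CD103 single-positive and 5.92 and 7.32 in double-negative cells. Only double-negative replicate 1, at 5.92, fell inside the fresh range, and the difference was 1.19 ± 0.19 (adjusted p = 0.000529). Ikzf3 was at 11.49 and 11.69 in activated double-positive, 11.52 and 11.78 in ICOS single-positive, 11.05 and 10.94 in CD103 single-positive and 10.52 and 11.07 in double-negative cells. In fresh cells it was at 12.15 and 11.90 in double-positive, 11.67 and 11.48 in ICOS single-positive, 11.55 and 11.42 in CD103 single-positive and 11.50 and 11.01 in double-negative cells. With activation it fell by 0.33 ± 0.10 on the log2 scale (adjusted p = 0.0298). The 2 states overlapped for Ikzf3, and with any of 8 arrays left out the fall missed the threshold, with adjusted p from 0.0609 to 0.0705.

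Prdm1 was at 10.68 and 10.74 in activated double-positive, 10.43 and 6.67 in ICOS single-positive, 8.99 and 9.83 in CD103 single-positive and 7.33 and 9.90 in double-negative cells. Its lowest activated level, 6.67, was on the array that stood apart, and the next lowest, 7.33, on double-negative replicate 1. The activated minus fresh difference was 0.74 ± 0.50 (adjusted p = 0.32) on all arrays. Without the array that stood apart it was 1.21 (adjusted p = 0.0147), so that 8 factors passed and 14.2% of all genes were called higher. Among the markers of other cells, the mean of 11 myeloid and dendritic cell markers was 5.41 to 5.85 on activated and 5.60 to 6.34 on fresh arrays, and that of the 9 cell cycle genes 10.57 to 11.11 and 5.93 to 9.49. The mean of the 7 markers of activated conventional CD4 T cells was 8.25 and 7.41 on activated, against 6.75 and 6.74 on fresh double-positive arrays, and 7.85 and 7.62 against 7.98 and 8.10 in ICOS single-positive cells. It was 6.73 and 7.02 against 6.51 and 6.44 in CD103 single-positive and 7.07 and 7.89 against 6.67 and 6.65 in double-negative cells. The part of any of these lists in these differences was not tested.

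Subset by subset, the count of factors that passed was highest in cells that started ICOS-. In double-negative cells 7 of the 9 factors rose, against 8.65% of all genes called higher, and in CD103 single-positive cells 7 rose, against 10.2%. In double-positive cells 5 rose, against 5.36%, and in ICOS single-positive cells 0 passed, where 2.09% of genes were called in either direction; there 3 of the 9 had an unadjusted p under 0.05, as did 13.1% of all genes. The Zeb2 calls in double-negative and double-positive cells ended without the array that stood apart, so both counts include a call that depends on it. A count that passes in 1 subset and not in another does not show a difference between them, and the difference itself is tested below.

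In double-negative cells Bhlhe40 rose by 3.21 ± 0.51 (9.24-fold, adjusted p = 0.00135) and Nfil3 by 3.21 ± 0.49 (9.23-fold, adjusted p = 0.00103). Id2 rose by 2.19 ± 0.35, Batf by 2.06 ± 0.23, Crem by 2.04 ± 0.35 and Irf4 by 1.53 ± 0.24 (adjusted p from 0.000157 to 0.00212). These 6 passed whichever array was left out. Zeb2 rose by 1.23 ± 0.38 (adjusted p = 0.0486), a call that ended with any of 13 arrays left out (adjusted p from 0.0549 to 0.365). Prdm1 had a difference of 1.88 ± 0.997 (adjusted p = 0.259) and its 2 activated arrays lay 2.58 apart.

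In CD103 single-positive cells Nfil3 rose by 2.97 ± 0.49 (7.85-fold, adjusted p = 0.00124), Crem by 2.61 ± 0.35 (6.10-fold, adjusted p = 0.000332) and Bhlhe40 by 2.19 ± 0.51 (adjusted p = 0.0101). Batf rose by 1.99 ± 0.23, Id2 by 1.75 ± 0.35, Zeb2 by 1.35 ± 0.38 and Irf4 by 1.30 ± 0.24 (adjusted p from 0.00015 to 0.0276). The calls of Bhlhe40 and Zeb2 ended without fresh replicate 2 (adjusted p = 0.0883 and 0.165) or activated replicate 2 (0.0596 and 0.209) of this subset. Prdm1 differed by 2.43 ± 0.997 (adjusted p = 0.125), and with the array that stood apart or its partner left out it passed at the same 2.43 (adjusted p = 0.0158), as the 8th factor where 10.6% of genes were called higher.

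In double-positive cells Bhlhe40 rose by 2.87 ± 0.51 (7.32-fold, adjusted p = 0.00388), and it alone of the 5 passed whichever array was left out. Nfil3 rose by 1.92 ± 0.49 (adjusted p = 0.023), Crem by 1.69 ± 0.35 (0.00843), Zeb2 by 1.27 ± 0.38 (0.047) and Batf by 1.11 ± 0.23 (0.00995). Without fresh double-positive replicate 1 these 4 missed the threshold, with adjusted p of 0.126, 0.0666, 0.128 and 0.066. Nfil3 also missed it without any other array of the double-positive groups (0.0672 to 0.0959), Batf without activated replicate 2 (0.069) and Zeb2 with any of 12 arrays left out (0.053 to 0.189). Prdm1 and Id2 were high in both states here, with differences of -0.09 (95% interval -2.28 to 2.11) and 0.16 (-0.62 to 0.93), and that of Irf4 was 0.30 (-0.23 to 0.82).

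In ICOS single-positive cells the differences were 2.08 ± 0.51 for Bhlhe40 (adjusted p = 0.0698), 1.29 ± 0.35 for Crem (0.0983) and 1.05 ± 0.49 for Nfil3 (0.396). Without the activated array of replicate 2, which leaves 1 activated array assumed to vary like the other groups, Nfil3 rose by 2.02 (adjusted p = 0.0127) and Crem by 1.95 (0.00489), 2 factors where 1.09% of genes were called higher. Bhlhe40 was then at 2.27 (adjusted p = 0.129), and it passed at 2.08 without either fresh double-negative array (0.0282). Irf4 was at -0.38 ± 0.24 (adjusted p = 0.589), and Prdm1 was at -1.25 on all arrays and at 0.63 without that array, neither past the threshold.

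**Figure D2:**
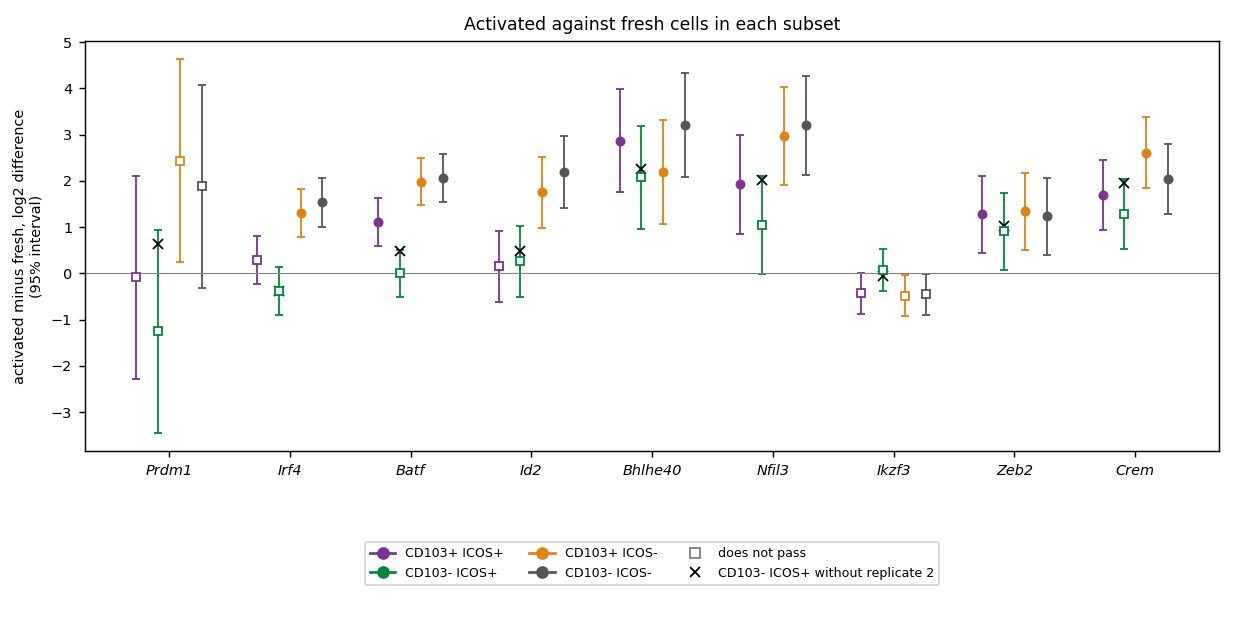
Activated minus fresh log2 difference of each factor in each subset, with 95% intervals, filled circles for differences that pass, open squares for those that do not, and a cross for the CD103- ICOS+ value without its activated replicate 2. Bhlhe40 is above 2 in all 4 subsets, Irf4 and Id2 are at 1.30 or more in both ICOS- subsets and at 0.30 or less in both ICOS+ subsets, and for Prdm1 the square is at -1.25 and the cross at 0.63.

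After activation 1 of the 9 factors, Ikzf3, was higher in the ICOS+ than in the ICOS- subsets, where 1.94% of genes were called higher. Ikzf3 differed by 0.72 ± 0.14 (1.65-fold, adjusted p = 0.0158). All 4 ICOS+ arrays, at 11.49 to 11.78, lay above all 4 ICOS- arrays, at 10.52 to 11.07. The share of all genes so separated in activated cells was not computed. The Ikzf3 call ended without activated double-positive replicate 2 and when the 8 activated arrays were fitted alone (adjusted p = 0.0541). It held without the array that stood apart, at a difference of 0.66.

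Irf4 had an ICOS difference of -0.29 ± 0.17 in activated cells (adjusted p = 0.41), Batf of -0.41 ± 0.17 (0.183), Id2 of 0.25 ± 0.25 (0.68) and Prdm1 of 0.62 ± 0.70 (0.736). Crem was at -0.66 ± 0.25 (adjusted p = 0.149) and Nfil3 at -0.54 ± 0.34 (0.463). Without the array that stood apart Crem was at -0.33, Nfil3 at -0.05, Batf at -0.18 and Prdm1 at 1.56 (adjusted p = 0.0867). With that array kept and its partner left out, Batf (-0.65, adjusted p = 0.00619), Nfil3 (-1.02, 0.0194) and Crem (-0.99, 0.00968) passed, so these 3 differences rest on which of the 2 arrays is read. Irf4 passed at -0.51 without activated CD103 single-positive replicate 2 (adjusted p = 0.0415), whose partner held the highest Irf4 level of the series, 11.49. Zeb2 and Bhlhe40 differed by 0.18 ± 0.27 and -0.05 ± 0.36.

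CD103 moved 0 of the 9 factors past the threshold in activated cells, where 0.717% of genes were called, and 3 factors had an unadjusted p under 0.05, as did 12.1% of all genes. Batf came closest at 0.80 ± 0.17 (adjusted p = 0.0584), with CD103+ arrays at 10.94 to 11.07 and CD103- arrays at 9.35 to 10.69. Without the array that stood apart it passed at 0.57 (adjusted p = 0.0452), 1 factor where 0.12% of genes were called higher. Nfil3 differed by 0.86 ± 0.34 (adjusted p = 0.347) and Crem by 0.71 ± 0.25 (0.267), and without that array by 0.37 each. Prdm1 differed by 1.48 ± 0.70 (adjusted p = 0.443), against 0.54 without that array and 2.42 without its partner (0.0168).

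For the interaction of CD103 and ICOS in activated cells 0 of the 9 passed, where 0.015% of genes were called. Batf was the 1 factor with an unadjusted p under 0.05, as were 2.6% of all genes, at 0.76 ± 0.33 (adjusted p = 1). It was at 0.28 without the array that stood apart and passed at 1.24 without its partner (adjusted p = 0.0159). For activated double-positive against double-negative cells 0 of the 9 passed, where 0.0451% of genes were called. Ikzf3 was the 1 factor with an unadjusted p under 0.05, against 15.2% of all genes, at 0.79 ± 0.20 (adjusted p = 0.152).

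The ICOS difference of Irf4, Batf and Id2 was smaller in activated than in fresh cells. These 3 of the 9 factors passed the test of the difference between the states, where 4.65% of genes were called in that direction. The activated minus fresh change of the ICOS difference was -1.46 ± 0.24 for Irf4 (adjusted p = 0.00442), -1.47 ± 0.23 for Batf (0.0041) and -1.76 ± 0.35 for Id2 (0.0128). All 3 calls held with each of the 16 arrays left out in turn. In both ICOS- subsets Irf4, Batf and Id2 rose with activation, and no ICOS+ group of these 3 factors did so except double-positive Batf, as given above.

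Prdm1 had the largest change of its ICOS difference, -2.82 ± 0.997, and did not pass (adjusted p = 0.129). It was at -1.88 without the array that stood apart (adjusted p = 0.136) and passed at -3.77 without that array's partner (0.0055). Nfil3 was at -1.60 ± 0.49 (adjusted p = 0.0789) and passed at -1.12 without the array that stood apart (0.0406), as the 4th factor where 3.96% of genes were called. Crem was at -0.84 ± 0.35 (adjusted p = 0.198), Bhlhe40 at -0.23 ± 0.51 (0.836), Zeb2 at -0.20 ± 0.38 (0.803) and Ikzf3 at 0.29 ± 0.20 (0.446). For the CD103 difference 0 of the 9 passed the test between states, where 0.296% of genes were called. Batf was the 1 factor with an unadjusted p under 0.05, against 10.6% of all genes, at 0.52 ± 0.23 (adjusted p = 0.467).

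**Figure D3:**
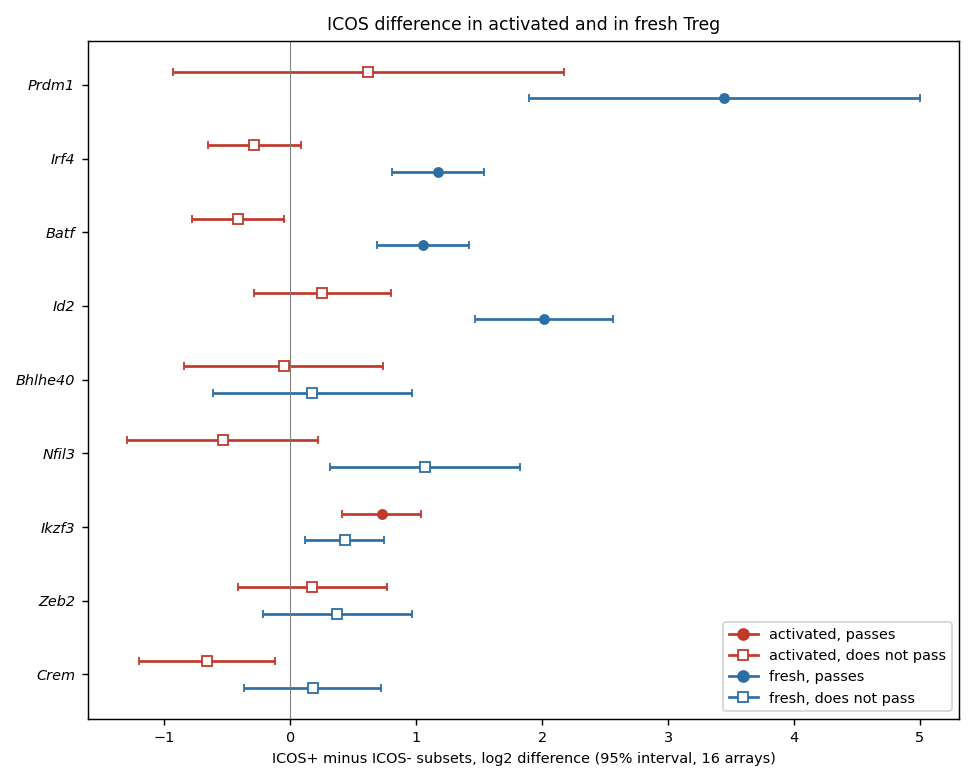
ICOS+ minus ICOS- log2 difference of each factor in activated (red, upper) and fresh (blue, lower) cells over 16 arrays, with 95% intervals, filled circles where the difference passes and open squares where it does not. Irf4, Batf, Prdm1 and Id2 pass in fresh cells, at 1.05 to 3.44, and Ikzf3 passes in activated cells, at 0.72.

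The 2 activated ICOS single-positive arrays did not differ alike for the 9 factors. On replicate 2 Prdm1 was 3.76 below its partner, 13.6-fold lower, Nfil3 1.94 below, Crem 1.33 below and Batf 0.95 below. Each of these 4 gaps was larger than that of the same gene in any of the other 7 pairs, where the largest were 2.58 for Prdm1, 0.81 for Nfil3, 0.50 for Crem and 0.25 for Batf. Id2, at 0.43 below, Bhlhe40, at 0.38 below, and Zeb2, at 0.22 below, stayed within the gaps of other pairs. Irf4 differed by 0.02 and Ikzf3 by 0.25 the other way. Of the 7 Treg markers 6 were lower on replicate 2 than on its partner, of 5 naive T cell markers 4 were higher, of 11 myeloid and dendritic cell markers 10 were higher (median change 0.13), of 4 plasma cell markers 4 were lower (-0.13) and of 9 cell cycle genes 8 were lower (-0.17); their part in the gaps of the factors was not tested.

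Activated double-negative replicate 1 lay below replicate 2 for Prdm1 by 2.58, Zeb2 by 1.40, Id2 by 1.19, Nfil3 by 0.81 and Ikzf3 by 0.55. These were the largest gaps outside the ICOS single-positive pair for all 5 genes. Of 7 markers of activated conventional CD4 T cells 3 were higher and 4 lower on replicate 2 than on replicate 1, with Ifng and Il21 (9.60, against 6.21) among the higher and a median change of -0.11; of 6 CD8 T and NK cell markers 2 were higher and 4 lower. Their part in these gaps was not tested. Among fresh pairs Bhlhe40 was the least repeatable factor, with gaps of 0.57 to 1.65.

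**Figure D4:**
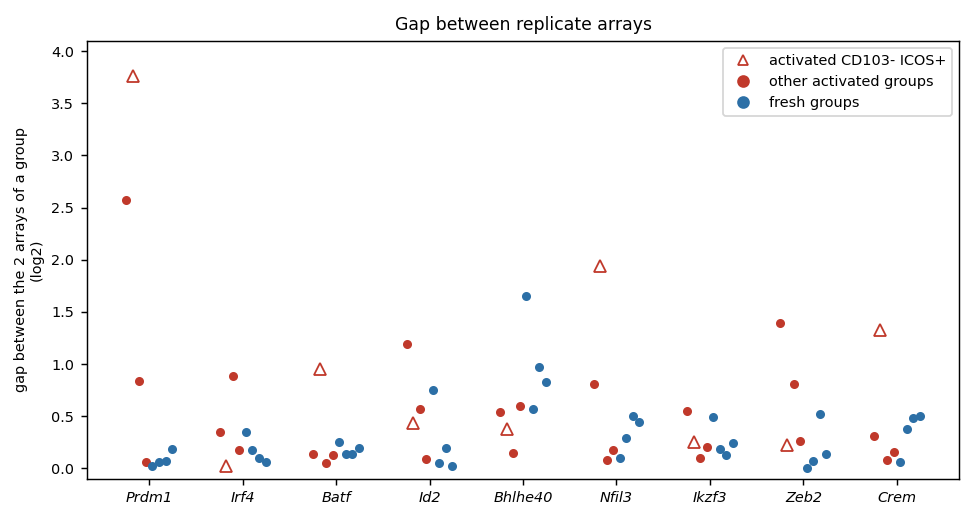
Absolute gap between the 2 arrays of each group, in log2 units, with a triangle for the activated CD103- ICOS+ pair, red points for the other activated pairs and blue points for the fresh pairs. The triangle is the highest point for Prdm1 at 3.76, Nfil3 at 1.94, Crem at 1.33 and Batf at 0.95, and lies inside the points for the other 5 genes apart from Irf4, where it is the lowest at 0.02.

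Ordered over all 8 groups, Prdm1 means fell in steps that none of their 95% intervals separated, with fresh double-positive cells highest at 10.80, activated double-positive at 10.71 and fresh double-negative lowest at 6.73. Irf4 was highest in activated CD103 single-positive cells at 11.05, fresh ICOS single-positive cells were next at 10.95, and only the steps to fresh CD103 single-positive (9.74) and fresh double-negative cells (9.19) had intervals clear of 0. For Id2 the single step clear of 0 lay between fresh ICOS single-positive cells at 11.68 and fresh CD103 single-positive cells at 10.38. Bhlhe40 had its single such step between activated double-positive cells at 10.50, the lowest activated group, and fresh ICOS single-positive cells at 8.58. Batf had 2 such steps, below activated double-negative cells at 10.62 and below activated ICOS single-positive cells at 9.82. Without the array that stood apart, activated ICOS single-positive cells took other places for Prdm1, Batf, Id2 and Bhlhe40. For Prdm1 they were at 10.43, next to activated double-positive cells, and the step below activated double-negative cells (8.61) was then clear of 0. For Batf they were at 10.30, above fresh double-positive cells (9.90), and 4 steps were clear of 0. For Id2 they were at 12.16, above activated CD103 single-positive cells (12.12), and for Bhlhe40 they were the highest group, at 10.84. For Irf4, Id2 and Bhlhe40 the steps clear of 0 lay at the same places.

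Genes with the most similar profiles were found by Pearson r of log2 levels over 16 arrays among 3540 genes whose group means spanned at least 1, and r is given as a description, since arrays share states and subsets. Prdm1 was most like Niban2 (r = 0.965) and Havcr2 (0.956), which encodes the inhibitory receptor Tim-3. Irf4 was most like the division genes Racgap1 (0.892) and Mki67 (0.889). Batf and Nfil3 shared Odc1, the first enzyme of polyamine synthesis, at 0.973 and 0.977, with Arhgap21 (0.973) beside it for Batf and Got1 (0.976) for Nfil3. Id2 was most like Atf6 (0.965) and Tirap (0.958), Bhlhe40 like Ifitm2 (0.975) and Fhl3 (0.966), and Crem like Tmtc2 (0.977) and Mapkapk2 (0.973). Zeb2 was most like Smim3 (0.958) and Trim16 (0.955), and Ikzf3 like Prex1 (0.900) and Mrgpre (0.861).

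Other genes around the 9 factors were counted in lists. For the ICOS difference in fresh cells 817 of all 19938 genes (4.1%) were called higher and 484 lower. With activation 14.4% of all genes were called higher and 16.8% lower. In fresh cells 12 of 17 measured effector Treg products were higher with ICOS and 0 lower, with a list median of 1.60 against -0.05 over all genes. With the array that stood apart left out 15 of 17 were higher, with Ebi3 (1.51, adjusted p = 0.00756), Tnfrsf9 (0.59, 0.0104) and Ctla4 (0.50, 0.00848) added. Klrg1 rose by 4.57 ± 0.72 (adjusted p = 0.00308), Il10, which needs Blimp-1 in mouse Treg, by 4.19 ± 0.85 (0.0134), Gzmb by 3.61 ± 0.75 (0.0148) and Havcr2 by 3.56 ± 0.57 (0.0035). Of 13 other effector-state factors 4 were higher and 0 lower: Maf by 2.08 ± 0.43, Ahr by 1.999 ± 0.25, Rora by 1.80 ± 0.31 and Hif1a by 0.49 ± 0.12. Without that array 4 were higher and 1, Eomes, was lower (-1.12, adjusted p = 0.00339). Of 10 central-state genes 5 were lower and 0 higher, with the repressor Bach2, a competitor of AP-1 factors, down by 1.59 ± 0.36 (adjusted p = 0.0247), Id3 by 1.30 ± 0.27 (0.016), Ccr7 by 1.06 ± 0.28 (0.0462) and Satb1 by 0.87 ± 0.17 (0.0108). The lists overlap in Maf, Id3 and Ets1, and a call of such a gene counts in each of its lists.

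Of 21 family relatives 1 was higher with ICOS in fresh cells, Hlf at 1.40 ± 0.16 (adjusted p = 0.0004), a basic leucine zipper gene, and 2 were lower, Id3 and Zeb1 (-0.41 ± 0.08, adjusted p = 0.0112). With activation 3 of these 21 rose and 10 fell, with a median of -0.28 against 0.00 over all genes; Id3 fell by 1.38 ± 0.19 (adjusted p = 0.000217) and Dbp by 1.33 ± 0.17 (0.00012), whereas Irf8 rose by 1.06 ± 0.16 (0.000411). Without that array 3 rose and 9 fell, as Prdm10 no longer passed (-0.34, adjusted p = 0.0726). Of 12 AP-1 and IRF partners 3 rose and 2 fell, where 14.4% of all genes rose and 16.8% fell. Fosl2 was up by 2.54 ± 0.18 (adjusted p = 1.72e-06), Junb up by 0.79 ± 0.22 (0.0161) and Nfatc1 down by 0.77 ± 0.08 (3.03e-05). Of the 3 E proteins, which Id2 holds back, Tcf4 rose by 1.28 ± 0.13 (adjusted p = 2.31e-05), Tcf12 fell by 0.44 ± 0.05 (8.63e-05) and Tcf3 did not pass.

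With activation 10 of the 17 effector Treg products rose and 3 fell: Gzmb rose by 3.46 ± 0.53 (adjusted p = 0.000387), Il10 by 2.17 ± 0.60 (0.0165) and Ccr8 by 1.69 ± 0.16 (1.07e-05), and Nt5e fell by 2.23 ± 0.24 (2.8e-05). When the array that stood apart was left out 12 rose and 4 fell, with Ebi3 (1.004, adjusted p = 0.00403) and Ctla4 (0.32, 0.00597) added to the rises and Klrg1 (-0.31, 0.0273) to the falls. Of the central-state genes 7 of 10 fell and 1, Satb1, rose by 1.43 ± 0.12 (adjusted p = 5.57e-06). Among the other effector-state factors 6 of 13 rose and 2 fell, where 14.4% of all genes rose and 16.8% fell. Tbx21 was up by 1.85 ± 0.29 (0.00046) and Ahr down by 1.27 ± 0.18 (0.000207). Without that array 8 rose and 2 fell, with Gata3 (0.49, adjusted p = 0.0438) and Rora (0.61, 0.000207) newly risen, Eomes newly fallen (-0.72, 0.0022) and Relb no longer passing (0.0772). Ahr thus rose with ICOS in fresh cells and fell with activation, and its ICOS difference was smaller in activated cells by -1.53 ± 0.35 (adjusted p = 0.0259); without that array it was at -1.38 and did not pass (0.0527). The change in the ICOS difference of Id3 was 1.69 ± 0.39 (0.0252).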

How the data were processed

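Arrays of 4 Treg subsets, fresh and activated, were grouped by their labels. The deposited values are log2 intensities, 1 for each of 35556 probe sets; per the submitters' processing notes RMA and the affy package were used, with versions and settings not given in the sources used here. The deposited array medians lie between 6.26 and 6.48, and no second normalization was applied. Arrays carry no counting depth, and their number limits the precision.

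Probe sets with exactly 1 symbol (21789) were kept, the brightest by mean over 16 arrays stood for a gene, and 19938 genes were tested without a filter on dim genes. Symbols matched the RefSeq identifiers of 21698 probe sets, and 0 differed. limma 3.58.1 in R 4.3.3 fitted 8 group means to all 16 arrays, with 8 residual and 2.9 prior degrees of freedom, for 15 comparisons, each adjusted by Benjamini-Hochberg over 19938 genes at 0.05. Data were simulated with 200 changed genes, no other change and noise independent between arrays. For the ICOS difference in fresh cells 93% of changes of 1 and 100% of changes of 2 on the log2 scale were recovered. Of the calls 4.93% were false. The measured arrays differ from that setting, with 1301 genes called and deviations that correlate between groups. These shares therefore need not hold for them. The 9 factors and the gene lists were chosen with earlier results of these data known. All 9 factors are named, with the 2 genes of highest r each and up to 4 passing members of each list with the largest difference; the likeness search skipped predicted genes, histones, small RNA and antigen receptors.

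Alternatives were quantile normalization applied again, the replicate number as a block, the mean of all probe sets of a gene, a mean-variance trend, array weights, dim genes left out, only the arrays of 1 state, and each array left out in turn.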

Additional observations from a re-analysis of the deposited data

Results flagged for a closer look

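The ICOS difference was not the same in the 2 states for 3 of the 9 factors, by limma's test of the difference itself over 16 arrays. The activated minus fresh change in the ICOS difference was -1.46 for Irf4 (adjusted p = 0.00442), -1.47 for Batf (0.0041) and -1.76 for Id2 (0.0128). For Irf4 the ICOS difference was -0.29 in activated cells and 1.17 in fresh cells, for Batf -0.41 and 1.05, and for Id2 0.25 and 2.01. The change had the same sign in the arrays of replicate 1 alone and of replicate 2 alone for each of the 3.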

How the results depend on the processing

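Of 39 differences of the 9 factors that passed on all 16 arrays, 26 passed under every alternative, 13 lost the call under at least 1, and 0 changed sign. The counts of factors that passed moved as follows. With 1 array left out they ran from 3 to 5 for ICOS in fresh cells, 7 to 9 for activated against fresh cells, 6 to 7 for activation in double-negative and 5 to 8 in CD103 single-positive cells, 1 to 5 for fresh double-positive against double-negative cells, 0 to 4 for ICOS and 0 to 4 for CD103 in activated cells, 0 to 1 for their interaction in activated cells, 0 to 2 for activation in ICOS single-positive and 1 to 5 in double-positive cells, 3 to 6 for the change of the ICOS difference and 0 to 1 for that of the CD103 difference. With the arrays of 1 state alone, CD103 in fresh cells gave 1 and ICOS in activated cells gave 0. A mean-variance trend and dim genes left out (11635 genes kept) each gave 1 for CD103 in activated cells, where all arrays gave 0, and 1 for activation in ICOS single-positive cells, where they gave 0.

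Signs changed only in differences that had not passed. Quantile normalization applied again put the ICOS difference of Bhlhe40 in activated cells at 0.0012, against -0.05. With 1 array left out, Bhlhe40 ran from -0.24 to 0.59 for ICOS and -0.42 to 0.40 for CD103 in fresh cells, -0.20 to 0.10 for ICOS and -0.27 to 0.032 for CD103 in activated cells, and -0.64 to 0.19 for the change of the ICOS difference. Irf4 ran from -0.12 to 0.052 for CD103 in fresh and -0.034 to 0.41 for CD103 in activated cells. In activated cells the ICOS difference ran from -0.32 to 1.56 for Prdm1, -0.045 to 0.55 for Id2 and -0.17 to 0.52 for Zeb2, and the CD103 difference of Ikzf3 from -0.068 to 0.21. The activation difference in ICOS single-positive cells ran from -3.13 to 0.63 for Prdm1, -0.48 to 0.47 for Batf and -0.053 to 0.20 for Ikzf3, that of Prdm1 in double-positive cells from -0.18 to 0.0067, and the change of the ICOS difference of Zeb2 from -0.55 to 0.15. The cause was not tested.

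The replicate numbers are not stated to pair samples; deviations from the group means correlated above 0.1 in 27 of 28 pairs of groups (-0.02 to 0.75, median 0.23). With the replicate block 0 of the differences lost its call and 3 gained it, with 1 factor for CD103 in activated cells (Batf, adjusted p = 0.038), 1 for activation in ICOS single-positive cells (Bhlhe40, 0.0137) and Ikzf3 for fresh double-positive against double-negative cells (0.0497). Over all genes the block gave 2275 calls against 1301 for ICOS in fresh cells, 143 against 41 for CD103 in fresh cells, 71 against 9 for the interaction in fresh cells, 1412 against 792 for fresh double-positive against double-negative, 2734 against 1383 for ICOS and 519 against 143 for CD103 in activated cells, 240 against 9 for activated double-positive against double-negative, 1064 against 417 and 4412 against 2803 for activation in ICOS single-positive and double-positive cells, and 2638 against 1339 and 370 against 59 for the changes of the ICOS and CD103 differences. With 1 state fitted alone the calls were 268 for CD103, 62 for the interaction and 1264 for double-positive against double-negative in fresh cells, and 443 for ICOS, 0 for CD103 and 0 for double-positive against double-negative in activated cells. Low signal may limit the folds of Zeb2 in fresh cells.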
